A study of Homo sapiens with 8 samples.

Results

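The receptors of the ERBB family, the EGF-like ligands that bind them and the feedback inhibitor ERRFI1 were examined in RNA-Seq counts from DU145 prostate cancer cells. The 10 genes were taken by symbol (EGFR, ERBB2, ERBB3 and ERBB4 as receptors, AREG, EREG, HBEGF, TGFA and BTC as ligands, and ERRFI1), and all 10 were found among the 23391 genes listed. DU145 is an established epithelial line of prostate cancer. It had been transfected with the pcDNA3.1-zeo vector, either empty (DU145-pc3.1 cells) or carrying an Esrrb expression construct (DU145-Esrrb cells), and stable transfectants were kept as pools under Zeocin, so neither cell type is a single clone. Esrrb is an orphan nuclear receptor and DY131 is a synthetic ligand of it. Each pool was sequenced after vehicle and after 3 μM DY131, which was given to confluent cells in medium with charcoal-stripped serum, and each of the 4 groups had 2 libraries. The vehicle groups are called untreated here, and cells without DY131 were likewise kept in medium with charcoal-stripped serum. The duration of treatment is not given in the sources used here.

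The 4 ERBB receptors are tyrosine kinases that act as dimers at the cell surface. EGFR binds TGFA, AREG, EREG, HBEGF and BTC, while ERBB4 shares a part of these ligands. ERBB2 has no known soluble ligand and serves as a partner for the others, and ERBB3, whose own kinase is weak, is a main docking point for PI3-kinase. The ligands are made as membrane-bound precursors and released by metalloproteases such as ADAM17. ERRFI1 (also called MIG6) binds the kinase domain of the receptors and dampens their activity. The EGFR pathway is best known in prostate epithelium for driving growth and survival.

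The 250 bases before the RefSeq start of the gene (build GRCh38.p14) are shown for 3 members, EGFR and HBEGF because they were the receptor and the ligand that rose most with DY131 in both pools, and EREG because it was the most abundant of the ligands and its window holds a TATA box and no GC box. Capitals mark matches to the GC box GGGCGG or to the TATA box TATAAA on either strand, and neighbouring or overlapping GC boxes form longer runs of capitals. The EGFR window lies at chr7:55018767-55019016 on the plus strand, the HBEGF window at chr5:140346604-140346853 on the minus strand and the EREG window at chr4:74364895-74365144 on the plus strand.
EGFR: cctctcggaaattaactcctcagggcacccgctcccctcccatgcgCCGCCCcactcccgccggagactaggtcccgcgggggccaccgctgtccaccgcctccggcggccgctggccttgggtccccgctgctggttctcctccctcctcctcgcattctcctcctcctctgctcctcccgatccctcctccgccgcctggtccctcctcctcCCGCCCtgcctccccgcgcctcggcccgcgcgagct
HBEGF: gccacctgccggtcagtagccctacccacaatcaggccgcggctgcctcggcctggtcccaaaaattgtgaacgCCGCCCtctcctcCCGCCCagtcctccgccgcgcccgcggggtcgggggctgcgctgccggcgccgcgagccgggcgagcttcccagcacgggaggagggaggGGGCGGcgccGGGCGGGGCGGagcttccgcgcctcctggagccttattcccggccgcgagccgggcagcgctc
EREG: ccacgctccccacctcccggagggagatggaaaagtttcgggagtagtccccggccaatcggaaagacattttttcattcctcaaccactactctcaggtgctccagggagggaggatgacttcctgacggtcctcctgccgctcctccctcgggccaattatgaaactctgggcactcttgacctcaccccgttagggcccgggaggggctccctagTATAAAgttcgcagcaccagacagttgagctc

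The HBEGF window held 5 GC boxes, the TGFA window 3, the EGFR window 2 and the ERRFI1, AREG and ERBB4 windows 1 each, and 42.6% of 35116 RefSeq promoter windows of this length held at least 1. The GC content was 76.4% for HBEGF and 73.6% for EGFR against a median of 58.0% over all windows. EREG had 58.0% GC and a TATA box starting at position -32, a motif found in 10.7% of windows. AREG had one as well, at position -29. The core of the response element that estrogen related receptors bind, AAGGTCA, occurred in 3.44% of all windows and its extended form TCAAGGTCA, which contains the core, in 0.319%. Neither was found on either strand in the windows of the 9 members with an entry (ERBB3 had none). The AP-1 motif TGANTCA, present in 6.57% of windows, was found in the ERBB2 window at position -222. These are letter matches in short windows and no binding was measured.

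The libraries held between 7858743 and 11551690 counts. ESRRB, the gene carried by the vector, was at 8.83 and 9.10 cpm (counts scaled to library size) in untreated DU145-Esrrb cells and at 13.7 and 16.2 cpm in the treated ones, while the 4 DU145-pc3.1 libraries had at most 3 ESRRB counts each, as the labels of the pools say. KRT8 (1064 to 1627 cpm), KRT18, KRT19, EPCAM and CDH1 marked the cells as epithelial. The prostate luminal genes KLK2 and KLK3 had no count. The summed markers of fibroblasts, of leukocytes and of endothelium each stayed under 6 cpm in each library, and DCN and CD3E were at 0. The 2 libraries of treated DU145-pc3.1 cells differed most from each other (chi-square per degree of freedom over genes 8.08, against 1.31 to 2.71 in the other groups). In these bulk samples, fewer cells of a type and less RNA per cell cannot be told apart.

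A gene was tested when it reached 1 cpm in at least 2 libraries, which 13856 genes and 9 of the 10 members did. ERBB4 had 5 counts over the 8 libraries and was not tested. Calls required an adjusted p (Benjamini-Hochberg over all tested genes, edgeR's quasi-likelihood F test) under 0.05, and errors of log2 fold changes are standard errors (SE). Esrrb alone gave no call among the 9 tested members, while 4.18% of all tested genes were called. The log2 fold changes of the members ran from -0.27 for HBEGF to 0.20 for ERBB3. No member passed an unadjusted p under 0.05 in that comparison either, with edgeR's quasi-likelihood test, its exact test or DESeq2. With DY131, 4 of the 9 were called in DU145-pc3.1 cells (3 higher, 1 lower), where 37.4% of all tested genes were (18.9% higher, 18.5% lower). In DU145-Esrrb cells 8 of the 9 were called (5 higher, 3 lower), against 58.7% of all tested genes (29.2% higher, 29.5% lower). DY131-treated DU145-Esrrb cells differed from DY131-treated DU145-pc3.1 cells in 7 of the 9 members (3 higher, 4 lower), against 50.4% of all tested genes (25.1% higher, 25.3% lower). With 2 libraries a group, separation of the libraries is common, and 65.5% of tested genes did not overlap between untreated and treated DU145-pc3.1 cells and 82.2% between untreated and treated DU145-Esrrb cells. The comparisons share libraries and are given side by side, each with its own values. Comparisons between the pools, also of their responses to DY131, cannot tell Esrrb apart from other differences between the pools. Their p-values reflect the spread between libraries of a group.

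**Figure D1:**
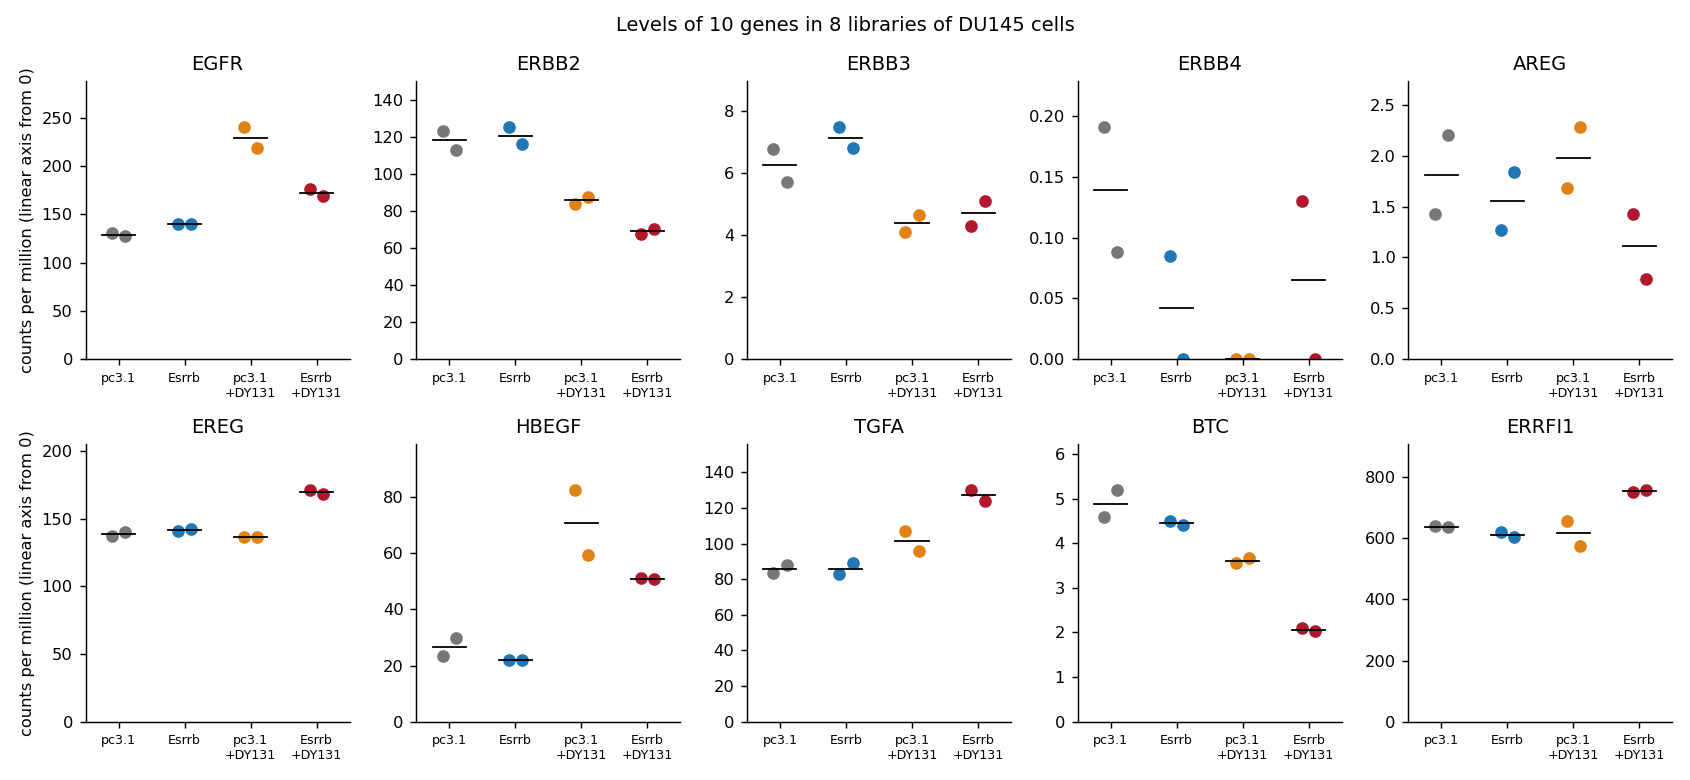
Level of each of the 10 genes in cpm (vertical axis, linear from 0, scaled for each gene), with 1 point per library and a line at the mean of the 2 libraries of a group. HBEGF rose from 22.1 to 29.7 cpm in untreated libraries to 50.8 to 82.4 cpm with DY131, ERBB2 fell to between 67.4 and 87.6 cpm with DY131, and ERBB4 never exceeded 2 counts in a library.

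The DY131-treated DU145-Esrrb libraries differed from the others in a property of transcript structure, and this touches the members unequally. Over 13606 genes, the change with DY131 in DU145-Esrrb cells fell with the share of 50-base windows of a transcript that cross an exon junction (Spearman rho -0.358 across genes, which are not independent replicates), whereas in DU145-pc3.1 cells rho was 0.0137. The median log2 fold change in DU145-Esrrb cells ran from 0.27 in the tenth of genes with the lowest share to -0.56 in the tenth with the highest. Among the members this share was 31.0% for ERBB2, 22.5% for ERBB3, 20.6% for AREG, 13.4% for EGFR, 10.5% for HBEGF, 8.9% for BTC, 5.7% for TGFA, 4.8% for ERRFI1 and 4.3% for EREG. Each comparison was therefore repeated with an offset that removes this trend, and corrected values are given for the member calls that it ended. After the correction 5 of the 9 members were called with DY131 in DU145-Esrrb cells (EGFR, ERBB2, HBEGF, TGFA and BTC), against 54.0% of the 13606 genes, and 4 in DU145-pc3.1 cells, against 38.3%.

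**Figure D2:**
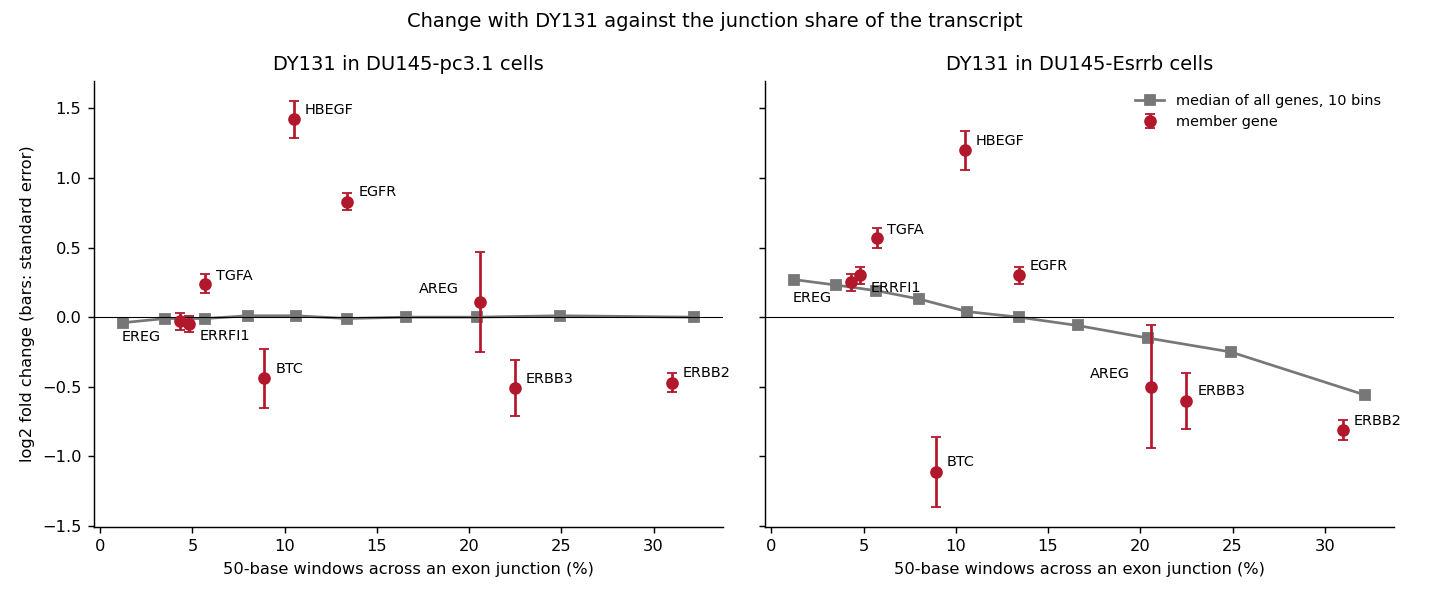
Log2 fold change with DY131 (vertical axis) against the percentage of 50-base windows of the transcript that cross an exon junction (horizontal axis), in DU145-pc3.1 cells on the left and DU145-Esrrb cells on the right. Grey squares are medians over all genes in 10 bins of 1360 or 1361 genes and red points are members with their SE. The grey line is flat on the left and runs from 0.27 to -0.56 on the right. On the right HBEGF, TGFA and EGFR lie above it and BTC, ERBB2 and ERBB3 below it. EREG and ERRFI1 lie closer to it there, and AREG lies below it with a wide SE.

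EGFR (chr7:55019021-55211628 in GENCODE 29, plus strand, 28 exons, NM_005228 in the files) is the receptor for the 5 ligands studied. Its untreated libraries gave 131.1 and 126.9 cpm for DU145-pc3.1 cells and 139.9 and 140.3 cpm for DU145-Esrrb cells. With DY131 the libraries gave 240.3 and 218.7 cpm for the former and 175.9 and 169.4 cpm for the latter. Every treated library was above every untreated one, and the treated DU145-pc3.1 libraries were the highest. EGFR rose 1.78-fold in DU145-pc3.1 cells (log2 fold change 0.83, SE 0.06, edgeR adjusted p = 1.64e-07). In DU145-Esrrb cells it rose 1.23-fold (log2 0.30, SE 0.06, edgeR adjusted p = 0.000662). The second rise was 0.04 with an edgeR adjusted p of 0.558 once transcript length and GC content entered as an offset, while the first was still 0.60. Under DY131, EGFR was lower in DU145-Esrrb than in DU145-pc3.1 cells by 0.41 on the log2 scale (log2 -0.41, SE 0.06, edgeR adjusted p = 4.97e-05). The difference between the 2 responses, tested as an interaction, was -0.53 (SE 0.09, edgeR adjusted p = 0.000306). It was -0.53 after the junction correction and -0.56 after the length and GC correction. Of the EGFR windows, 1.41% lie opposite the antisense gene EGFR-AS1, and whether the counting used strand is not stated.

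ERBB2 (HER2, chr17:39687914-39730426, plus strand, 31 exons, NM_001005862) moved the other way with the ligand. Untreated levels were 123 and 113 cpm in DU145-pc3.1 cells and 125 and 116 cpm in DU145-Esrrb cells. With DY131 they were 83.5 and 87.6 cpm in the first pool and 67.4 and 70.4 cpm in the second. The treated libraries were below the untreated ones in both pools without overlap. ERBB2 fell to 0.724 of its level in DU145-pc3.1 cells (log2 fold change -0.47, SE 0.07, edgeR adjusted p = 8.53e-05). The fall in DU145-Esrrb cells was to 0.571 (log2 -0.81, SE 0.07, edgeR adjusted p = 1.93e-07), and -0.35 after the junction correction (edgeR adjusted p = 0.00105). The larger fall in DU145-Esrrb cells gave an interaction of -0.34 (SE 0.10, edgeR adjusted p = 0.0155), which became 0.12 with an adjusted p of 0.433 after that correction. Likewise the difference between the pools under DY131 was -0.31 (edgeR adjusted p = 0.00259) before and 0.16 (adjusted p = 0.101) after it. Of the ERBB2 windows, 3.06% lie opposite PGAP3, a neighbouring gene on the other strand.

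ERBB3 (chr12:56076799-56103505, plus strand, NM_001005915) was far less abundant, with 33 to 88 counts in a library. Its levels were 6.78 and 5.72 cpm in DU145-pc3.1 cells, 7.47 and 6.81 cpm in DU145-Esrrb cells, 4.11 and 4.66 cpm in treated DU145-pc3.1 cells and 4.30 and 5.09 cpm in treated DU145-Esrrb cells. Treated libraries lay below untreated ones in both pools. The log2 fold change with DY131 was -0.51 in DU145-pc3.1 cells (SE 0.20, edgeR adjusted p = 0.0547), which missed the threshold. ERBB3 was called lower in DU145-Esrrb cells (log2 -0.60, SE 0.20, edgeR adjusted p = 0.0171), a call lost after the junction correction (-0.40, adjusted p = 0.107), with DESeq2 (adjusted p = 0.122), without DU145-Esrrb replicate 1 (-0.53, adjusted p = 0.102) and without library A of the treated DU145-Esrrb cells (-0.49, adjusted p = 0.122). ERBB4 (chr2:211375717-212538841, minus strand, NM_001042599) had 2, 1, 1 and 0 counts in the untreated libraries and 0, 0, 1 and 0 in the treated ones. A floor of 3 counts corresponds to between 0.260 and 0.382 cpm here, so a level under that could not be told from 0.

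The opposite movement of EGFR and ERBB2 was seen within each library as their ratio, which does not depend on library size. The ratio of EGFR to ERBB2 counts was 1.06 and 1.12 in DU145-pc3.1 cells and 1.12 and 1.21 in DU145-Esrrb cells. With DY131 it was 2.88 and 2.50 in DU145-pc3.1 cells and 2.61 and 2.41 in DU145-Esrrb cells. The 2 treated groups overlapped each other and both lay above the untreated libraries. In the treated DU145-Esrrb libraries the ratio also carries the difference in junction share between the 2 transcripts.

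**Figure D3:**
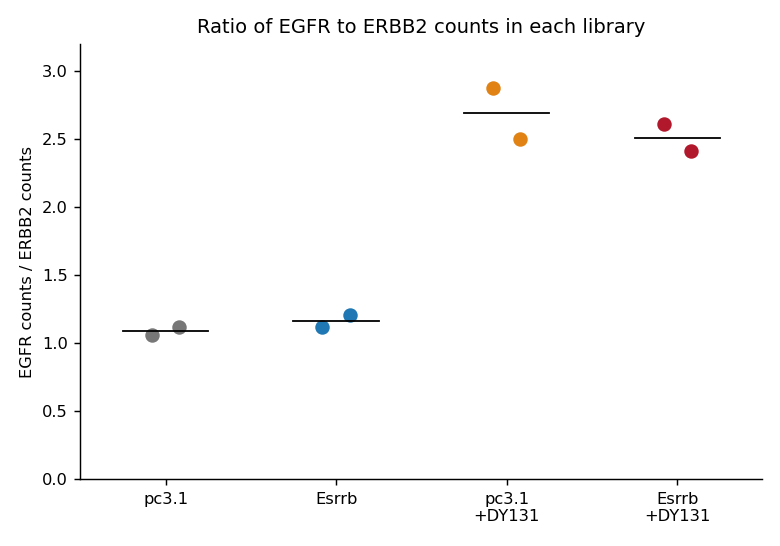
Ratio of EGFR counts to ERBB2 counts (vertical axis, from 0) in each of the 8 libraries by group, with a line at the mean of 2 libraries. The untreated libraries sit between 1.06 and 1.21 and the treated ones between 2.41 and 2.88.

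Among the ligands, HBEGF (heparin-binding EGF-like growth factor, chr5:140332843-140346631, minus strand, NM_001945) changed most with DY131 in DU145-pc3.1 cells. It was at 23.3 and 29.7 cpm in DU145-pc3.1 cells, 22.1 and 22.1 cpm in DU145-Esrrb cells, 82.4 and 59.3 cpm in treated DU145-pc3.1 cells and 51.0 and 50.8 cpm in treated DU145-Esrrb cells. All 4 treated libraries were above all 4 untreated ones, and the treated DU145-pc3.1 pair was the most spread. HBEGF rose 2.67-fold in DU145-pc3.1 cells (log2 fold change 1.42, SE 0.13, edgeR adjusted p = 1.54e-06). It rose 2.30-fold in DU145-Esrrb cells (log2 1.20, SE 0.14, edgeR adjusted p = 4.02e-06). Of the members it alone was both called and changed by a log2 of 1 or more in both pools, a rule that 4.19% of tested genes met in DU145-pc3.1 cells and 12.0% in DU145-Esrrb cells. Under DY131 the level was lower in DU145-Esrrb cells (log2 -0.48, SE 0.13, edgeR adjusted p = 0.00526), but the interaction of -0.21 (SE 0.20) had an adjusted p of 0.434. Both values varied in size with the treated DU145-pc3.1 library left out, while the difference under DY131 stayed negative. Without replicate 1 of the treated DU145-pc3.1 cells the difference under DY131 was -0.23 and the interaction was 0.029. Without replicate 2 of the treated DU145-pc3.1 cells the difference was -0.70 and the interaction was -0.43.

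TGFA (transforming growth factor alpha, chr2:70447280-70554193, minus strand, NM_001099691) was at 83.6 and 87.9 cpm in DU145-pc3.1 cells, 82.9 and 89.0 cpm in DU145-Esrrb cells, 107 and 95.7 cpm in treated DU145-pc3.1 cells and 130 and 124 cpm in treated DU145-Esrrb cells. Treated libraries were above untreated ones in both pools. It rose 1.18-fold in DU145-pc3.1 cells (log2 fold change 0.24, SE 0.07, edgeR adjusted p = 0.0140). This call was lost without replicate 1 of the treated (0.17, adjusted p = 0.0653) or of the untreated (0.22, adjusted p = 0.102) DU145-pc3.1 cells. In DU145-Esrrb cells it rose 1.48-fold (log2 0.57, SE 0.07, edgeR adjusted p = 7.00e-06).

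EREG (epiregulin, chr4:74365143-74388751, plus strand, NM_001432) gave the most counts of the ligands and took 53.8% of the counts of the 5 ligands in DU145-pc3.1 cells. Its libraries were at 137 and 140 cpm in DU145-pc3.1 cells, 141 and 142 cpm in DU145-Esrrb cells, 136 and 136 cpm in treated DU145-pc3.1 cells and 171 and 168 cpm in treated DU145-Esrrb cells. The first 3 groups lay between 136 and 142 cpm and the last stood above them. With DY131 its log2 fold change was -0.03 in DU145-pc3.1 cells (SE 0.06, edgeR adjusted p = 0.740) and it rose by 0.25 in DU145-Esrrb cells (SE 0.06, edgeR adjusted p = 0.00108). After the junction correction the latter was 0.05 (edgeR adjusted p = 0.461). Its junction share was the lowest of the 9 tested members, and genes with a median share of 3.52% had a median log2 fold change of 0.23 in the same libraries.

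BTC (betacellulin, chr4:74744759-74794686, minus strand, NM_001729) and AREG (amphiregulin, chr4:74445134-74455009, plus strand, NM_001657) lie on chromosome 4 with EREG and were scarce. BTC was at 4.58 and 5.19 cpm in DU145-pc3.1 cells, 4.50 and 4.41 cpm in DU145-Esrrb cells, 3.55 and 3.67 cpm in treated DU145-pc3.1 cells and 2.09 and 2.03 cpm in treated DU145-Esrrb cells, from 59 down to 16 counts. The 2 treated DU145-Esrrb libraries were the lowest of the 8. BTC fell to 0.463 of its level with DY131 in DU145-Esrrb cells (log2 fold change -1.11, SE 0.25, edgeR adjusted p = 0.00148). In DU145-pc3.1 cells the log2 fold change was -0.44 (SE 0.21, edgeR adjusted p = 0.116), and the interaction was -0.67 (SE 0.34, adjusted p = 0.137), so a difference between the pools was not shown. Under DY131 BTC was lower in DU145-Esrrb cells (log2 -0.81, SE 0.27, edgeR adjusted p = 0.0198), a call lost with DESeq2 (adjusted p = 0.126) and without either library of the treated DU145-Esrrb cells (adjusted p = 0.0711 and 0.0948). AREG had 7 to 25 counts in a library and gave no call in any of the 5 comparisons. Its levels were 1.43 and 2.20 cpm in DU145-pc3.1 cells, 1.27 and 1.84 cpm in DU145-Esrrb cells, 1.68 and 2.28 cpm in treated DU145-pc3.1 cells and 1.43 and 0.791 cpm in treated DU145-Esrrb cells. The RefSeq table lists the former gene AREGB as a synonym of AREG, a second near-identical copy in older builds, so reads may have been split or dropped and the AREG values are uncertain.

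By their share of the counts of the 5 ligands, EREG and TGFA led in each group. HBEGF took 10.3% in DU145-pc3.1 cells and 8.63% in DU145-Esrrb cells, and 22.5% and 14.5% in the same pools with DY131. BTC and AREG together stayed under 3% in each group. The 3 ligand genes of chromosome 4 did not move together: under DY131 in DU145-Esrrb cells EREG was called higher before the junction correction, BTC was called lower, and AREG was not called.

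ERRFI1 (chr1:8004404-8026308, minus strand, 4 exons, NM_018948) was the most abundant of the 10. It was at 640 and 636 cpm in DU145-pc3.1 cells, 621 and 604 cpm in DU145-Esrrb cells, 658 and 576 cpm in treated DU145-pc3.1 cells and 752 and 758 cpm in treated DU145-Esrrb cells. The treated DU145-pc3.1 libraries spanned the range of the untreated ones, and the treated DU145-Esrrb libraries were above all others. With DY131 its log2 fold change was -0.05 in DU145-pc3.1 cells (SE 0.06, edgeR adjusted p = 0.576). This value was -0.14 and called without replicate 1 of the treated DU145-pc3.1 cells (edgeR adjusted p = 0.0316), and 0.044 without replicate 2 (adjusted p = 0.509). ERRFI1 rose in DU145-Esrrb cells (log2 0.30, SE 0.06, edgeR adjusted p = 0.000711). After the junction correction the value in DU145-Esrrb cells was 0.11 (edgeR adjusted p = 0.171), so that the call was lost.

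**Figure D4:**
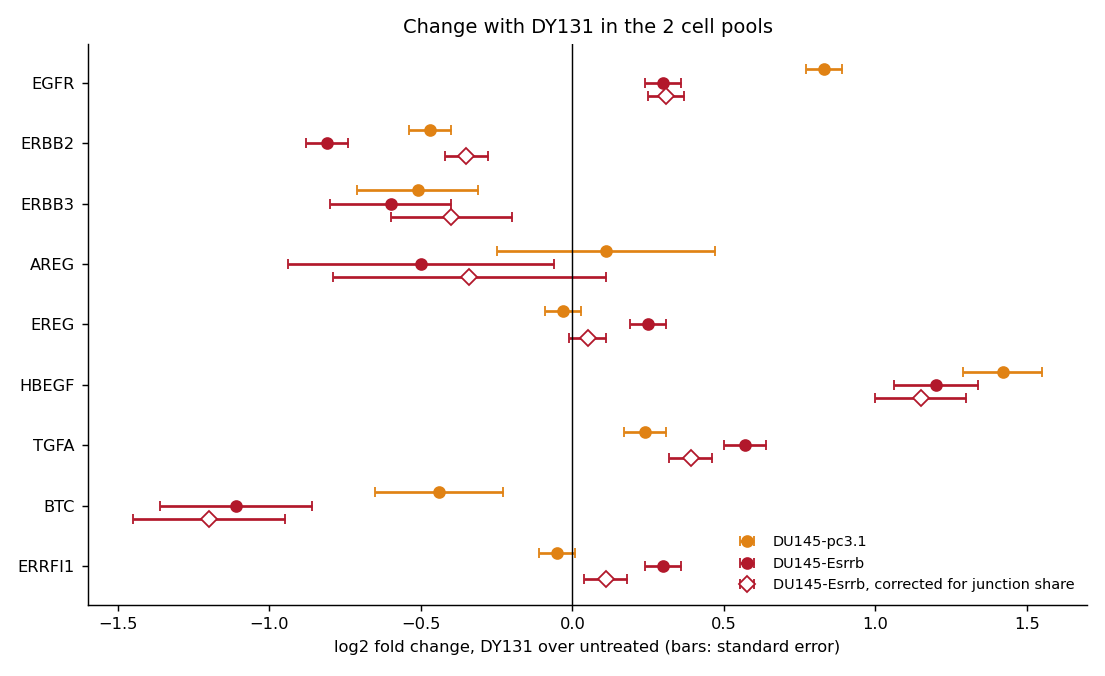
Log2 fold change with DY131 over vehicle (horizontal axis, bars are SE) for the 9 tested members in DU145-pc3.1 cells (orange), DU145-Esrrb cells (red) and DU145-Esrrb cells after the junction correction (open diamonds). HBEGF lies at 1.15 or above in all 3, and ERBB2, EREG and ERRFI1 move toward their DU145-pc3.1 values after the correction.

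The responses to DY131 in the 2 pools were compared by the interaction of Esrrb and DY131. In edgeR's quasi-likelihood test 5 of the 9 members were called, with 33.7% of all tested genes (16.1% higher, 17.6% lower). EGFR (-0.53) and ERBB2 (-0.34) responded lower in DU145-Esrrb cells, and ERRFI1 (0.35), TGFA (0.32) and EREG (0.28) higher. After the junction correction EGFR was the 1 member called (-0.53, edgeR adjusted p = 0.000514), against 22.8% of genes. Under DY131, TGFA, EREG and ERRFI1 were called higher in DU145-Esrrb than in DU145-pc3.1 cells (log2 0.33, 0.32 and 0.29). None of the 3 was called after the correction (0.13, 0.09 and 0.08). ERBB2, called lower before the correction (-0.31), was not called after it either (0.16). EGFR, HBEGF and BTC were thus the 3 members still called in that comparison, against 39.3% of genes. The interaction count also fell to 2 without DU145-pc3.1 replicate 2, without DU145-Esrrb replicate 1 or without library A of the treated DU145-Esrrb cells.

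To compare levels between genes, cpm were divided by the length of the longest coding transcript in kilobases. Over the 8 libraries the mean was 211 cpm per kilobase for ERRFI1, 31.6 for EREG, 23.2 for TGFA, 20.5 for ERBB2, 17.8 for HBEGF, 17.1 for EGFR, 1.33 for BTC, 1.30 for AREG, 0.949 for ERBB3 and 0.00509 for ERBB4. ERRFI1 stood apart from EREG, EGFR from BTC and ERBB3 from ERBB4, while every other pair of neighbours in this order overlapped in range over the libraries. The order among the middle genes shifted with treatment. In DU145-pc3.1 cells ERBB2 (24.7 ± 1.50 cpm per kilobase, SD, n = 2) was above EGFR (13.1 ± 0.305), and with DY131 EGFR (23.4 ± 1.55) was above ERBB2 (17.8 ± 0.608). HBEGF went from 11.1 ± 1.89 to 29.7 ± 6.85 cpm per kilobase in the same cells, beside EREG at 29.4 cpm per kilobase.

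**Figure D5:**
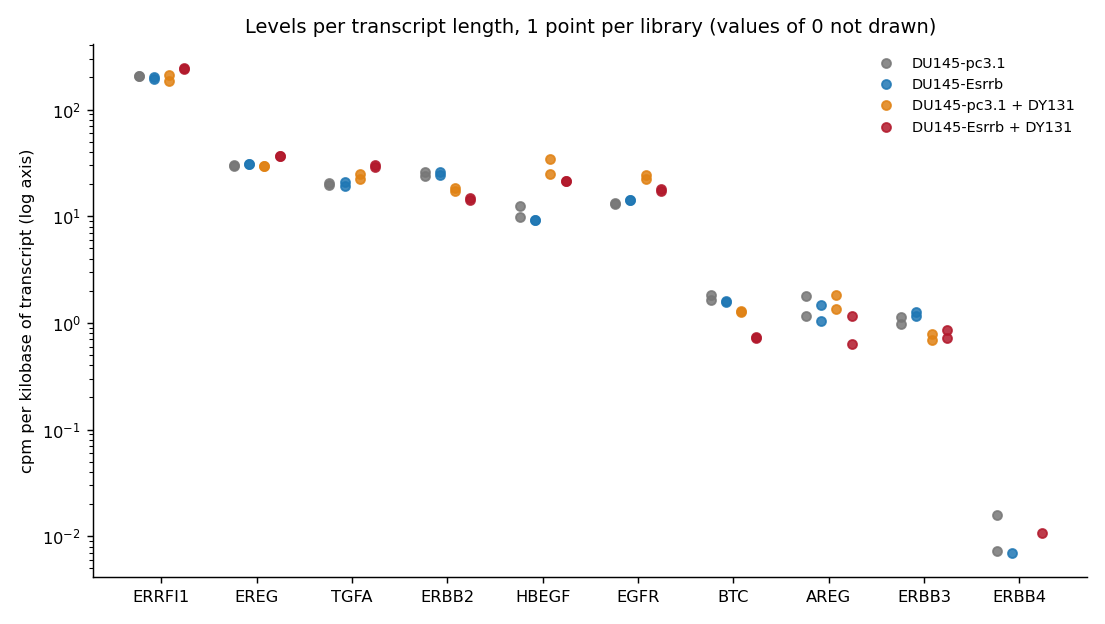
Level in cpm per kilobase of transcript (vertical axis, log scale) for the 10 genes in falling order of their mean, with 1 point per library coloured by group. ERRFI1 lies above the rest, EREG to EGFR lie between 9.25 and 36.9, and BTC, AREG and ERBB3 lie under 2.

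Around these members, 92 genes in 5 lists of the ERBB pathway were counted, each list having been assembled with earlier results of these data known. Of the 6 other ERBB ligands, 4 were tested. EGF, the founding ligand of EGFR, fell with DY131 in DU145-pc3.1 cells from a mean of 4.30 to 1.77 cpm (log2 fold change -1.27, SE 0.34, edgeR adjusted p = 0.00753). In DU145-Esrrb cells it went from 4.76 to 2.08 cpm (log2 -1.18, adjusted p = 0.00672), a call lost without DU145-Esrrb replicate 1 (-0.76, adjusted p = 0.123) or library A of the treated cells (-0.88, adjusted p = 0.0870).

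Of the 10 sheddases and rhomboids that release ERBB ligands, 2 were called higher (18.9% of all tested genes were) and 2 lower (18.5%) with DY131 in DU145-pc3.1 cells, with a median log2 fold change of 0.07 against 0.00 over all tested genes. In DU145-Esrrb cells 1 was higher (29.2% of all) and 6 lower (29.5%), with a median of -0.31 against 0.00. With the junction correction 1 was higher and 3 lower there, while 54.0% of the 13606 genes were called. ADAM17, the main protease for TGFA, AREG and HBEGF, fell from 109 to 87.4 cpm in DU145-pc3.1 cells (log2 -0.33, SE 0.07, edgeR adjusted p = 0.00125). It fell from 107 to 56.1 cpm in DU145-Esrrb cells (log2 -0.93, SE 0.07, adjusted p = 4.03e-08), and by 0.79 after the correction (log2 -0.79). Its interaction was -0.61 (edgeR adjusted p = 0.000259), or -0.46 corrected (adjusted p = 0.00361). ADAM12 rose from 4.63 to 10.5 cpm in DU145-pc3.1 cells (log2 1.18, SE 0.18, edgeR adjusted p = 0.000109) and was at 8.06 and 9.08 cpm in DU145-Esrrb cells without and with DY131 (log2 0.17, adjusted p = 0.415). In untreated cells ADAM12 was already higher with Esrrb (log2 0.80, SE 0.18, edgeR adjusted p = 0.0218), a call lost with DESeq2 (adjusted p = 0.145), with the replicate block (adjusted p = 0.0553) and without any 1 of the 4 untreated libraries (adjusted p from 0.0684 to 0.219), and this difference enters the interaction. The interaction was -1.01 (edgeR adjusted p = 0.00584), which was also called after the junction correction (adjusted p = 0.00899). ADAM19 rose in both pools, by 0.97 and 0.56 on the log2 scale (edgeR adjusted p = 3.31e-05 and 0.00207). ADAM15 fell from 201 to 161 cpm in DU145-pc3.1 cells (log2 -0.31, edgeR adjusted p = 0.00117) and from 233 to 113 cpm in DU145-Esrrb cells (log2 -1.04, or -0.36 corrected, adjusted p = 0.000334).

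Of the 24 tested adaptors and enzymes recruited to the receptors, 4 were called higher and 5 lower with DY131 in DU145-pc3.1 cells (37.4% of all tested genes were called; median 0.00, against 0.00). In DU145-Esrrb cells 8 were higher and 6 lower (58.7% of all, median 0.06 against 0.00), so that both counts were near the share over all genes. With the junction correction 8 were higher and 3 lower in DU145-Esrrb cells, while 54.0% of the 13606 genes were called. GRB7, an adaptor that binds ERBB2 and ERBB3, fell from 13.4 to 4.82 cpm in DU145-pc3.1 cells (log2 fold change -1.47, SE 0.15, edgeR adjusted p = 3.69e-06). In DU145-Esrrb cells it fell from 16.5 to 4.37 cpm (log2 -1.91, SE 0.16, adjusted p = 9.08e-08). The latter value was -1.44 after the junction correction (edgeR adjusted p = 2.36e-06). SHC1, which links receptors to RAS, fell in both pools (log2 -0.37 and -0.70, edgeR adjusted p = 0.000337 and 2.62e-07). PIK3R1, a regulatory subunit of PI3-kinase, rose from 14.8 to 24.0 cpm in DU145-pc3.1 cells (log2 0.70, edgeR adjusted p = 0.000377) and from 11.2 to 16.9 cpm in DU145-Esrrb cells (log2 0.58, adjusted p = 0.00195).

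Of the 25 tested inhibitors and degradation factors, 5 were called higher and 6 lower with DY131 in DU145-pc3.1 cells (37.4% of all tested genes were called; median -0.03, against 0.00). In DU145-Esrrb cells 6 were higher and 7 lower (58.7% of all, median 0.00 against 0.00). With the junction correction 8 were higher and 8 lower there, while 54.0% of the 13606 genes were called. CBLC, a ubiquitin ligase of the CBL family, fell from 10.6 to 5.60 cpm in DU145-pc3.1 cells (log2 fold change -0.91, SE 0.20, edgeR adjusted p = 0.00203). It fell from 12.2 to 2.59 cpm in DU145-Esrrb cells (log2 -2.22, SE 0.24, adjusted p = 1.39e-06), and by less after the junction correction (log2 -1.72). The CBLC interaction was -1.31 (edgeR adjusted p = 0.00621), and -0.81 and not called after the correction (adjusted p = 0.0804). The phosphatase PTPN6 fell in both pools as well (log2 -0.76 and -1.42, edgeR adjusted p = 6.55e-05 and 1.34e-07). With the junction correction the second value was -0.95. Its interaction was -0.66 (edgeR adjusted p = 0.00691), and -0.18 and not called after the correction (adjusted p = 0.459).

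The ERK pathway lies downstream of the receptors, and 20 of its feedback genes were tested. With DY131 in DU145-pc3.1 cells 7 were called higher (18.9% of all tested genes were) and 7 lower (18.5%), with a median of 0.09 against 0.00. The junction correction gave 8 higher and 7 lower there, while 38.3% of the 13606 genes were called. In DU145-Esrrb cells 12 were higher (29.2% of all) and 4 lower (29.5%), with a median of 0.33 against 0.00. The junction correction gave 9 higher and 6 lower there, while 54.0% of the 13606 genes were called. The immediate early genes FOS and EGR1 fell in both pools. FOS went from 32.6 ± 10.3 to 3.16 ± 0.548 cpm (SD, n = 2) in DU145-pc3.1 cells (log2 fold change -3.35, SE 0.27, edgeR adjusted p = 3.68e-07) and from 36.6 ± 9.73 to 3.71 ± 0.288 cpm in DU145-Esrrb cells (log2 -3.31, adjusted p = 8.72e-08). EGR1 went from 257 to 55.5 cpm and from 234 to 38.9 cpm (log2 -2.20 and -2.59, edgeR adjusted p = 2.46e-07 and 1.82e-08). SPRY4, an inhibitor of receptor tyrosine kinase signalling, rose from 6.70 to 16.7 cpm in DU145-pc3.1 cells (log2 1.31, edgeR adjusted p = 8.07e-05) and from 9.33 to 18.0 cpm in DU145-Esrrb cells (log2 0.96, adjusted p = 0.000361). DUSP7, a phosphatase of ERK, rose from 11.8 to 24.0 cpm in DU145-pc3.1 cells (log2 1.03, edgeR adjusted p = 9.47e-06) and from 12.5 to 30.4 cpm in DU145-Esrrb cells (log2 1.29, adjusted p = 2.19e-07). DUSP4, another one, differed in its response between the pools, from 21.8 to 16.1 cpm in DU145-pc3.1 and from 18.2 to 34.1 cpm in DU145-Esrrb cells (interaction 1.34, SE 0.17, edgeR adjusted p = 3.05e-05, or 1.07 corrected). These lists were described by counts and medians and were not tested as sets.

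Outside the members, the genes whose log2 cpm over the 8 libraries were most like those of EGFR were SLC19A1, RPS6KA4 and DNMT1 (Pearson r 0.9908, 0.9905 and 0.9901). For EREG they were SRSF9, MGC70870 and BAG5 (r 0.9965, 0.9931 and 0.9930). The 8 points are 4 pairs of libraries of the same group, 13856 genes were searched, and the values are a description.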

How the data were processed

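RNA-Seq counts of 8 libraries in 4 groups were used. The authors trimmed and mapped the reads (TopHat2, hg18), counted them per gene with their program MULTICOM-MAP and deposited raw counts for 23391 genes, without normalization. The kit was stranded, but the handling of strand and of multi-mapped reads in counting is not given in the sources used here. Columns were tied to samples by the descriptions in the record. The 2 columns of treated DU145-Esrrb cells have identical headings and no replicate number, and are called libraries A and B.

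The members and the lists were chosen with earlier results of these data known. A minimum of 1 cpm in 2 or more libraries left 13856 genes, which were normalized by TMM and fitted in 1 model of the 4 groups with edgeR 4.0.16 (R 4.3.3, limma 3.58.1). The quasi-likelihood F test was used with Benjamini-Hochberg adjustment over all tested genes, and the SE is the log2 fold change divided by the root of F. Given cpm use effective library sizes. Alternatives were the exact test, DESeq2 1.42.0, other scalings and filters, leaving out each library, a fold threshold, a replicate block and offsets for gene structure. Junction share, length and GC content came from the longest coding transcript of GENCODE 29 (GRCh38), with 50-base windows, and 98.2% of tested genes had values. The offset was a lowess fit of span 0.3. Promoters came from RefSeq (GRCh38.p14). Tables and plots used Python 3.11.15 with pandas 2.3.3 and matplotlib 3.10.9.

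All members were named, and from each pathway list and comparison at most 3 genes with the largest change among those called and not overlapping between groups (for the interaction, called). Not every gene of that rule is described. On simulated counts of 13675 genes for DY131 in DU145-Esrrb cells, the quasi-likelihood test found 92 of 100 genes changed by a log2 of 1 and 100 of 100 changed by 2, with 14 false calls. The simulation gave every gene the same dispersion, changed only genes above a minimum level and held no junction trend. Its figures need not hold for these libraries or for the scarce members. Floors are 3 counts and cover counting error only, since without molecular identifiers a read is not an independent molecule. Replicate numbers were those of the sample titles, while the numbers in the column headings differ from them for some libraries. Libraries with the same title number did not deviate together (correlations of 0.0826, 0.0265 and -0.0694), so the numbers were not used as pairs. Some of the marker genes examined are not reported here.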

Additional observations from a re-analysis of the deposited data

Results flagged for a closer look

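The response to DY131 differed between the pools in an interaction test of edgeR's quasi-likelihood model for 5 members. For EGFR the response in DU145-Esrrb cells was lower by a log2 of -0.53 (edgeR adjusted p = 0.000306), and after the correction for junction share it was -0.53 (adjusted p = 0.000514). For ERBB2 it was -0.34 (edgeR adjusted p = 0.0155) and 0.12 (adjusted p = 0.433) after the correction. For EREG it was 0.28 (edgeR adjusted p = 0.0126) and 0.06 (adjusted p = 0.629). For ERRFI1 it was 0.35 (edgeR adjusted p = 0.00696) and 0.14 (adjusted p = 0.293). For TGFA it was 0.32 (edgeR adjusted p = 0.0230) and 0.13 (adjusted p = 0.388), and the adjusted p was 0.0751 with DESeq2 and 0.0535 after the length and GC correction (0.26), each of which left 4 members called. Without DU145-pc3.1 replicate 2, without DU145-Esrrb replicate 1 or without library A of the treated DU145-Esrrb cells, ERBB2, EREG and TGFA were not called, and TGFA was not called without library B either. Groups of 2 libraries are too small to look for a library far from the others.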

How the results depend on the processing

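Of the 45 member results, none turned direction or changed its call with DESeq2 size factors in edgeR or without a filter on low counts, and the same holds for the 36 that the exact test or a fit of the 4 libraries compared could give. With a log2 fold change of at least 1 required, the members called were 1 with DY131 in DU145-pc3.1 cells, 2 with DY131 in DU145-Esrrb cells, 0 for Esrrb in DY131-treated cells and 0 for the interaction. The junction share correction left 5, 3 and 1 of the 8, 7 and 5 members called with DY131 in DU145-Esrrb cells, for Esrrb in DY131-treated cells and for the interaction. It turned 4 directions: ERBB2 for Esrrb in DY131-treated cells (0.16), ERBB2 (0.12) and ERBB3 (0.12) for the interaction and TGFA for Esrrb in untreated cells (-0.001). ERBB3 with DY131 in DU145-pc3.1 cells was called with library size alone (adjusted p = 0.0409), at least 10 counts in every library (0.0490) and the length and GC correction (0.0281). Leaving out 1 library gave 2 to 6 members called for the interaction, and turned the direction of values that were not called with all libraries: ERBB2 (-0.030 to 0.094), AREG (-0.52 to 0.11) and TGFA (-0.048 to 0.054) for Esrrb in untreated cells, AREG (-0.15 to 0.46) and ERRFI1 (-0.14 to 0.044) with DY131 in DU145-pc3.1 cells, ERBB3 for Esrrb in DY131-treated cells (-0.026 to 0.21), and ERBB3 (-0.22 to 0.029) and HBEGF (-0.43 to 0.029) for the interaction. Of the other genes named, STARD3 turned direction with DY131 in DU145-pc3.1 cells under the length and GC correction (0.095) and in DU145-Esrrb cells under the junction correction (0.090). Where leaving out a library left a group with 1 library, that library was assumed to vary like the other groups. The junction share offset removes the trend by construction, whatever gave rise to it. The cause of these changes was not tested.

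When replicate number entered as a replicate block over the 6 libraries that carry one, 0 members were called for Esrrb in untreated cells and 4 with DY131 in DU145-pc3.1 cells, as in the same 6 libraries without the block, also with the junction correction added. Depth limits ERBB4, AREG, BTC and ERBB3, which had at most 88 counts in a library.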

Other observations

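Genes that neighbour ERBB2 on chromosome 17 were looked at after their values were seen. PGAP3 (chr17:39671122-39688057, GRCh38.p14), which lies just before ERBB2 and acts on the anchors of membrane proteins, fell with DY131 in DU145-pc3.1 cells (log2 fold change -0.55, SE 0.14, edgeR adjusted p = 0.00602) and in DU145-Esrrb cells (-0.74, SE 0.14, adjusted p = 0.000413). MIEN1 (chr17:39728510-39730532), which overlaps the end of ERBB2, fell in both pools too (-0.59 and -0.51, edgeR adjusted p = 0.000285 and 0.000597), though in DU145-Esrrb cells not after the length and GC correction (-0.10, adjusted p = 0.410). GRB7 (chr17:39737938-39747285) fell by more, as given above. STARD3 (chr17:39637144-39664201), a cholesterol transporter on the far side of PGAP3 from ERBB2, had a log2 fold change of -0.08 in DU145-pc3.1 cells (edgeR adjusted p = 0.525) and 0.095 after the length and GC correction. It was called lower in DU145-Esrrb cells (-0.44, edgeR adjusted p = 0.000709) but was at 0.09 after the junction correction (adjusted p = 0.417). No chance level was computed for this run of neighbours.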
